A study of Mus musculus with 8 samples.

Results

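The genes of histone H2B ubiquitination and of the PAF complex were followed in mouse embryonic fibroblasts (MEFs) derived from embryos, cultured cells of connective tissue type. The set held 10 genes chosen by name, which were 10 of the 17501 genes with their own transcript clusters on the array: the ligase genes Rnf20 and Rnf40, the conjugating enzyme genes Ube2a and Ube2b, the adaptor gene Wac, the deubiquitinase gene Usp22, and Paf1, Ctr9, Rtf1 and Leo1 of the PAF complex. RNA of 8 MEF samples was hybridised to Affymetrix arrays, 1 array for each combination of genotype (wild-type or Smurf2-/-), background (C57B6, or a mix of 129SVJ and NIH Black Swiss called mixed BL) and passage class. The wild-type C57B6 and Smurf2-/- C57B6 cells were taken at passage 7 (early) and 28 (late), and the wild-type mixed BL and Smurf2-/- mixed BL cells at passage 6 (early) and 33 (late), all without treatment. Per the labels, C57B6 cells came from 1 embryo per genotype, Smurf2-/- mixed BL cells from a mix of 3 embryos and wild-type mixed BL cells from a mix of 2. The embryos were of E14.5 per the sample descriptions and of day 11.5 per the growth protocol, in all 8 samples. The labels do not say whether early and late arrays are passages of the same culture. If they are, arrays of one genotype and background are not independent, which the fits do not allow for. The p-values and intervals here rest on the spread among the 8 arrays, part of which may be technical.

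Ubiquitination of H2B is a mark of transcribed genes. The ligase formed by RNF20 and RNF40 attaches ubiquitin to H2B with a conjugating enzyme of the RAD6 family, encoded by Ube2a and Ube2b; WAC and the PAF complex bring this machinery to elongating RNA polymerase II, and USP22 of the SAGA coactivator removes the mark again. H2B ubiquitination promotes methylation of histone H3 at the H3K4 and H3K79 positions. RNF20 protein is a known substrate of the ubiquitin ligase SMURF2, whereas the arrays measured RNA.

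Promoter windows, each the 250 bases before an annotated gene start, are shown for 3 of the genes whose values lay lower at late passage. Windows from RefSeq (GRCm38.p6) were searched for 7 of the 10 genes, and none was searched for Wac, Usp22 and Ctr9. This does not show that RefSeq lacks starts for these genes. Capitals mark CCAAT boxes (CCAAT) and GC boxes (GGGCGG) on either strand.
Rnf20, chr4:49638375-49638624, plus strand: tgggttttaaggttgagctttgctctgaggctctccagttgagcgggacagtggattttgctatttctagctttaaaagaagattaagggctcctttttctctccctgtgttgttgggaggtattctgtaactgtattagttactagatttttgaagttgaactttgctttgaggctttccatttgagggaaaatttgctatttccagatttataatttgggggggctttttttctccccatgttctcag
Ube2a, chrX:36874045-36874294, plus strand: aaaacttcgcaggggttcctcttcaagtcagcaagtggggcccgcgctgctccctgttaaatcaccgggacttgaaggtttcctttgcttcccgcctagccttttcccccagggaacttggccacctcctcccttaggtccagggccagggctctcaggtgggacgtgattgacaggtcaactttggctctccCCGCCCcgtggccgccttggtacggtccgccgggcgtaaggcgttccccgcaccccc
Paf1, chr7:28392746-28392995, plus strand: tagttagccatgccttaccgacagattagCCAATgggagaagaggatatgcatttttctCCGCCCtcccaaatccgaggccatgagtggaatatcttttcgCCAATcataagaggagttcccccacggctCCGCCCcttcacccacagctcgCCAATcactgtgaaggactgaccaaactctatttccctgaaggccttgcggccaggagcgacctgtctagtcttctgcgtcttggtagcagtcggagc
The Paf1 window held 3 CCAAT boxes and 2 GC boxes, the Ube2a window 1 GC box, and the Rnf20 window neither. Over all 32851 mouse windows of this length, 33.8% held a CCAAT box and 32.7% a GC box, so such matches are common. The windows of Ube2a and Paf1 held 15 and 11 CG dinucleotides and that of Rnf20 held 1, against a median of 6 over all windows. Whether the annotated start behind each window is the one used in these cells was not tested. The Rnf20 window may therefore not be its main promoter. The E-box (CACGTG, 6.02% of windows), the cAMP response element (TGACGTCA, 1.55%) and the ETS site (CCGGAAGT, 2.88%), searched on both strands, had no match in these 3 windows. This does not hold for all genes lower at late passage. Of Ube2b, not shown, the window at chr11:52000787-52001036 held 3 E-boxes and that at chr11:52000492-52000741 held 0. A match is a run of letters and does not show a bound factor.

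Each value is a log2 difference from the transcript cluster's own median over the 8 arrays. Levels of different genes therefore cannot be set against each other, and whether a marker gene was present or absent cannot be read. Smurf2, averaged over 2 clusters, was 2.97-fold lower in Smurf2-/- arrays (log2 difference -1.57 ± 0.12, SE, limma adjusted p = 0.0483). The sex-linked genes parted the same arrays, with Xist at -4.36 ± 0.33 and the Y-linked Uty at 2.35 ± 0.13, so genotype and sex-linked expression cannot be told apart. The mean of 15 cell cycle genes was 1.10 in late Smurf2-/- C57B6 and 0.52 in late Smurf2-/- mixed BL, and lay between -0.18 and 0.042 in the other 6 arrays. Of 6 fibroblast markers the median ran from -0.64 in late Smurf2-/- C57B6 to 0.070 in late wild-type C57B6. The mean ran from -0.89 in the same late Smurf2-/- array to 0.66 in early Smurf2-/- mixed BL, where Thy1 stood at 2.76 and Pdgfra at 1.17. The list means ran from -0.11 to 0.20 for leukocyte markers, -0.072 to 0.094 for endothelium, -0.058 to 0.22 for epithelium and -0.34 to 0.60 for neural markers, the neural extremes both lying in C57B6.

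**Figure D1:**
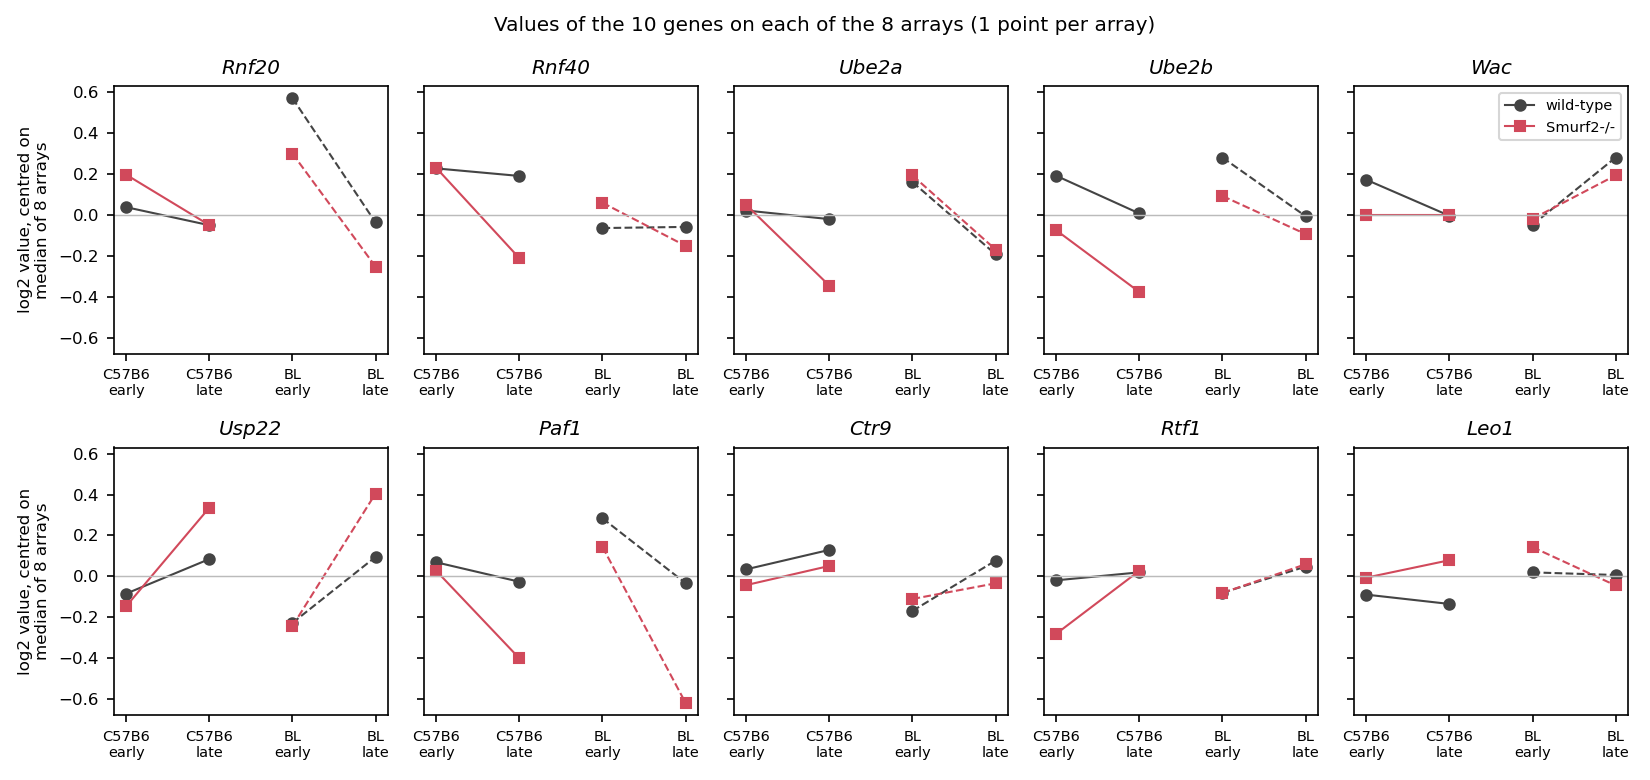
Centred log2 values (y axis, log2 difference from the gene's median over 8 arrays) of the 10 genes in each array (x axis, background and passage class), with lines joining the early and late arrays of one genotype and background. Paf1 spans the widest range, 0.90, and Leo1 the narrowest, 0.28.

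Rnf20 and Rnf40, the genes of the ligase, followed different patterns. Rnf20 (cluster 10504926, chromosome 4) stood at 0.037 and -0.051 in early and late wild-type C57B6 cells, 0.20 and -0.050 in Smurf2-/- C57B6, 0.57 and -0.037 in wild-type mixed BL, and 0.30 and -0.25 in Smurf2-/- mixed BL. Every early array lay above every late array, with the early wild-type mixed BL array highest and the late Smurf2-/- mixed BL array lowest. Late minus early, the log2 difference was -0.37 ± 0.12 (SE, n = 4 against 4; 1.30-fold; limma adjusted p = 0.223). Between genotypes it was -0.082 ± 0.12 (adjusted p = 0.859, 95% interval -0.38 to 0.22), and the 4 matched pairs did not share a sign. Rnf40 (cluster 10557716, chromosome 7) stood at 0.23 and 0.19 in early and late wild-type C57B6 cells, 0.23 and -0.21 in Smurf2-/- C57B6, -0.065 and -0.059 in wild-type mixed BL, and 0.059 and -0.15 in Smurf2-/- mixed BL. The late Smurf2-/- C57B6 array stood 0.40 below its wild-type partner, while the early pair differed by 0.0023. For passage, Rnf40 differed by -0.17 ± 0.098 (adjusted p = 0.420), and by -0.076 without the late Smurf2-/- C57B6 array. Within wild-type cells the passage difference of Rnf40 was -0.016 ± 0.12 (adjusted p = 0.988), and within Smurf2-/- cells -0.33 ± 0.12 (adjusted p = 0.305).

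The conjugating enzyme genes lay lower at late passage, and Ube2b also lower in the Smurf2-/- arrays, which the sex-linked genes set apart as well. Ube2b (cluster 10385761, chromosome 11) stood at 0.19 and 0.0065 in early and late wild-type C57B6 cells, -0.076 and -0.38 in Smurf2-/- C57B6, 0.28 and -0.0065 in wild-type mixed BL, and 0.092 and -0.094 in Smurf2-/- mixed BL. The Smurf2-/- array was the lower in each of the 4 matched pairs, but the groups overlapped. Smurf2-/- minus wild-type, Ube2b differed by -0.23 ± 0.066 (SE; 1.17-fold; adjusted p = 0.651, 95% interval -0.39 to -0.068), and late minus early by -0.24 ± 0.066 (adjusted p = 0.179). Ube2a (cluster 10599222), its X-linked paralog, stood at 0.021 and -0.021 in early and late wild-type C57B6 cells, 0.048 and -0.35 in Smurf2-/- C57B6, 0.16 and -0.19 in wild-type mixed BL, and 0.19 and -0.17 in Smurf2-/- mixed BL. Every early array lay above every late one. Its passage difference was -0.29 ± 0.085 (1.22-fold; adjusted p = 0.196). Its genotype difference was -0.061 ± 0.085 (adjusted p = 0.850). The late C57B6 pair differed by -0.33, and the other 3 of 4 pairs by 0.023 to 0.032. Wac (cluster 10453721), the adaptor gene, ranged from -0.049 to 0.28 over the 8 arrays, highest in late wild-type mixed BL. It was higher at late passage in mixed BL, by 0.33 in wild-type and 0.21 in Smurf2-/-, but not in C57B6, where the differences were -0.18 and 0.0001. The interaction of background and passage, a fit added after the planned ones, was 0.36 ± 0.13 for Wac (adjusted p = 0.506).

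Usp22, which removes ubiquitin from H2B, lay higher at late passage. Usp22 (cluster 10386636, chromosome 11) stood at -0.084 and 0.084 in early and late wild-type C57B6 cells, -0.15 and 0.34 in Smurf2-/- C57B6, -0.23 and 0.095 in wild-type mixed BL, and -0.24 and 0.40 in Smurf2-/- mixed BL. All late arrays lay above all early arrays, and the late Smurf2-/- arrays were the highest. The passage difference was 0.41 ± 0.089 (SE, n = 4 against 4; 1.32-fold; adjusted p = 0.137), the lowest adjusted p of the 10 genes in that comparison. Without both late Smurf2-/- arrays it was 0.25, by construction the same as the difference within wild-type cells. Within Smurf2-/- cells the passage difference was 0.56 ± 0.096 (adjusted p = 0.129) and within wild-type cells 0.25 ± 0.096 (adjusted p = 0.687). The interaction of genotype and passage, which tests that difference, was 0.32 ± 0.14 (adjusted p = 0.947, 95% interval -0.029 to 0.67).

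Of the SAGA deubiquitinase module, 3 other genes (Atxn7, Atxn7l3 and Eny2) were measured, besides Usp27x, a relative of Usp22, and none passed. ATXN7 anchors the module, and Atxn7 differed by -0.32 ± 0.096 (SE) between genotypes (adjusted p = 0.651), by -0.54 ± 0.096 between backgrounds (adjusted p = 0.140), and by -0.49 ± 0.10 between genotypes at late passage (adjusted p = 0.186). ATXN7L3 activates USP22, and Atxn7l3 differed by -0.22 ± 0.074 for passage (adjusted p = 0.231). Late minus early within Smurf2-/- cells, Atxn7l3 differed by -0.35 ± 0.082 (adjusted p = 0.182) and Atxn7 by -0.34 ± 0.10 (adjusted p = 0.254), where Usp22 was higher. Of 5 other genes for proteins reported to remove ubiquitin from H2B, Usp3 differed by 0.20 ± 0.076 for passage (adjusted p = 0.264, 4 of 4 pairs higher) and the median was -0.019.

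The PAF complex gene Paf1 had the widest range over the arrays, 0.90. Paf1 (cluster 10551496, chromosome 7) stood at 0.069 and -0.026 in early and late wild-type C57B6 cells, 0.026 and -0.40 in Smurf2-/- C57B6, 0.28 and -0.033 in wild-type mixed BL, and 0.14 and -0.62 in Smurf2-/- mixed BL. All late arrays lay below all early ones, and the late Smurf2-/- arrays were the lowest. Late minus early, Paf1 differed by -0.40 ± 0.12 (SE; 1.32-fold; adjusted p = 0.190). Between genotypes it differed by -0.29 ± 0.12 (adjusted p = 0.651, 95% interval -0.57 to -0.0027), with all 4 pairs lower in Smurf2-/-: -0.042 and -0.14 at early passage in C57B6 and mixed BL, and -0.37 and -0.59 at late passage. The genotype difference of Paf1 was -0.18 without the late Smurf2-/- mixed BL array. Without both late Smurf2-/- arrays it was -0.091 and the passage difference of Paf1 was -0.21. These 2 values are by construction the differences within early passage and within wild-type cells. At late passage the genotype difference of Paf1 was -0.48 ± 0.13 (adjusted p = 0.241) and at early passage -0.091 ± 0.13 (adjusted p = 1.00), and their difference was -0.39 ± 0.18 (adjusted p = 0.983). The arrays in which Usp22 was highest and Paf1 lowest are the late Smurf2-/- arrays in which the cell cycle genes were highest; the part of proliferation in either difference was not tested.

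**Figure D2:**
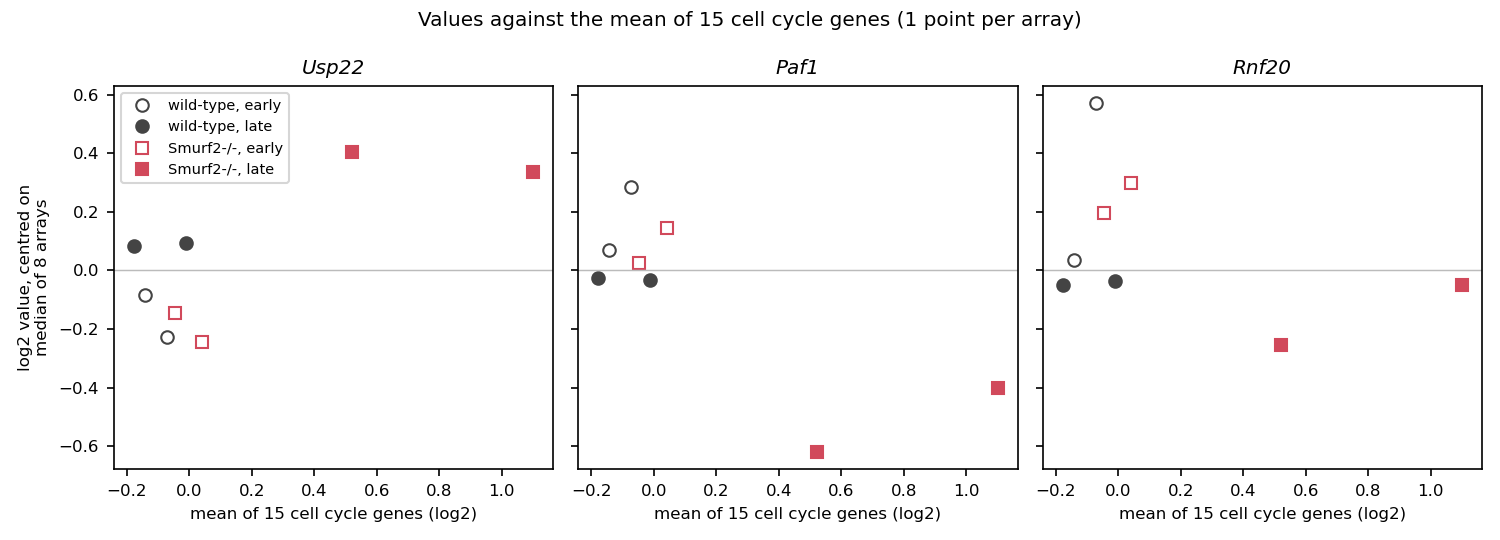
Centred log2 values of Usp22, Paf1 and Rnf20 (y axes) against the mean of 15 cell cycle genes (x axis, log2), 1 point per array. The late Smurf2-/- arrays, at 0.52 and 1.10 on the x axis, hold the highest Usp22 (0.40 and 0.34) and the lowest Paf1 values (-0.62 and -0.40).

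The other PAF complex genes moved over narrower ranges. Ctr9 (cluster 10556321, chromosome 7), the scaffold of the complex, ranged from -0.17 to 0.13, and its late arrays were higher in all 4 pairs by 0.076 to 0.25 (0.13 ± 0.058, SE, adjusted p = 0.325). Rtf1 (cluster 10475000, chromosome 2), which stimulates the conjugating step on H2B, ran from -0.28 to -0.019 in the early arrays and from 0.019 to 0.059 in the late ones, with early Smurf2-/- C57B6 lowest; the passage difference was 0.15 ± 0.069 (adjusted p = 0.322), and 0.099 without that array. Leo1 (cluster 10587211, chromosome 9) ranged from -0.14 to 0.14 and differed by -0.040 ± 0.068 for passage (adjusted p = 0.770) and 0.092 ± 0.068 for genotype (adjusted p = 0.726). Of the complex's genes outside the 10, Cdc73, which encodes parafibromin, was higher in every mixed BL array than in any C57B6 array, by 0.39 ± 0.089 (adjusted p = 0.191). Skic8, measured under its older symbol Wdr61, was higher in early mixed BL arrays than in all others, at 0.58 in Smurf2-/- and 0.66 in wild-type cells.

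Across the 10 genes, most of the differences at an unadjusted p under 0.05 were those of passage. At an unadjusted p under 0.05, 5 of 10 genes differed, Usp22 higher and Rnf20, Ube2a, Ube2b and Paf1 lower; over all 17501 genes 17.3% did, 6.95% higher and 10.3% lower. After adjustment 0 of 10 passed, against 0.0171% of all genes. Early and late arrays did not overlap for Usp22 and Rtf1, higher at late passage (5.44% of all genes), and for Rnf20, Ube2a and Paf1, lower at late passage (4.59% of all genes). The exact two-sided permutation p was 0.0286 for each of these, the smallest that 4 arrays against 4 allow. Groups that do not overlap always give this value, so it adds nothing to the lack of overlap. All 4 pairs had one sign for Usp22, Ctr9 and Rtf1, higher at late passage (15.1% of all genes), and for Rnf20, Ube2a, Ube2b and Paf1, lower at late passage (11.9%). The count of 5 was 3 without the early Smurf2-/- mixed BL array and 2, Ube2b and Usp22, without both late Smurf2-/- arrays, an alternative added after the data were seen. Within Smurf2-/- cells 4 of 10 reached an unadjusted p under 0.05 (14.8% of all genes), namely Usp22, Paf1, Ube2a and Rnf40, and within wild-type cells 0 of 10 did (7.25%). None of 10 passed after adjustment in either genotype, and 0% of all genes did.

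**Figure D3:**
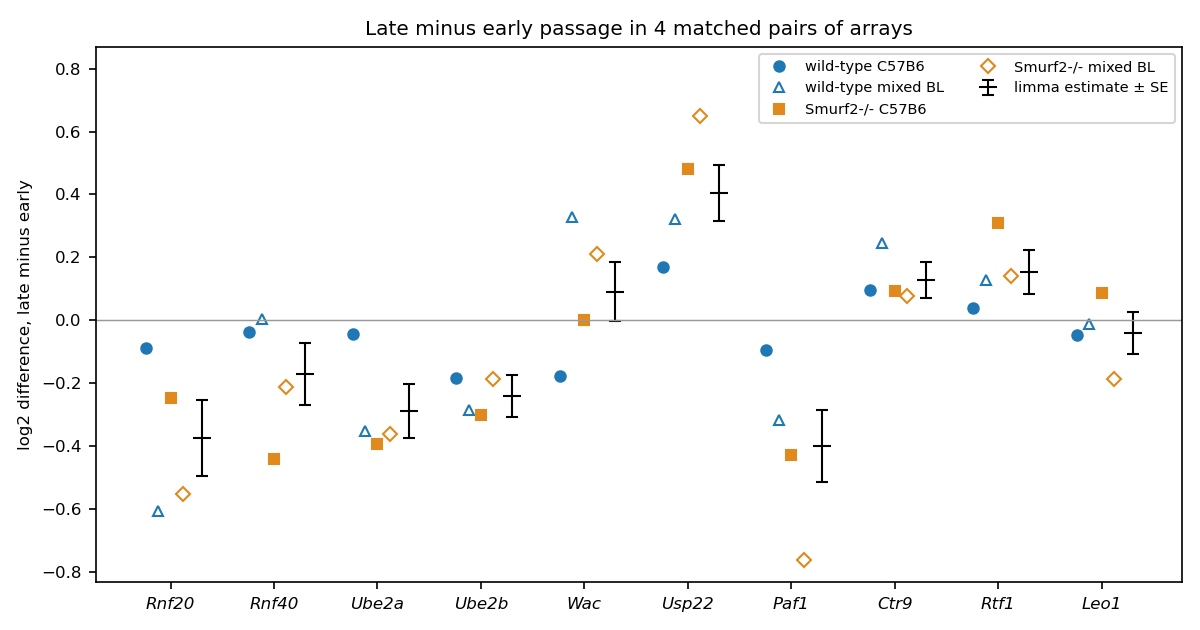
Late minus early log2 differences (y axis) of the 10 genes (x axis) in each of the 4 matched pairs of arrays, with the limma estimate and its standard error. Usp22 lies above 0 in all 4 pairs, with an estimate of 0.41, and Rnf20, Ube2a, Ube2b and Paf1 lie below 0 in all 4.

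Genotype was compared over the same 4 pairs of background and passage class. At an unadjusted p under 0.05, 2 of 10 genes, Ube2b and Paf1, were lower in Smurf2-/- cells, against 4.42% of all genes lower, and 0 of 10 passed after adjustment (0.0286% of all genes). Both were lower in all 4 pairs, as were 9.35% of all genes. Rnf40 differed by -0.092 ± 0.098 (SE), Wac by -0.056 ± 0.095, Ctr9 by -0.052 ± 0.058 and Rtf1 by -0.061 ± 0.069, with limma adjusted p from 0.801 to 0.880. For 0 of 10 genes did the genotype groups part without overlap, against 1.02% of all genes lower and 1.14% higher. The count of 2 was 1, Ube2b, without any of 6 of the 8 arrays in turn, and 2 without the early wild-type C57B6 or the early Smurf2-/- mixed BL array. Without both late Smurf2-/- arrays the count was 0, where Ube2b differed by -0.23 and Paf1 by -0.091, as within early passage. Within late passage Paf1 (lower) and Usp22 (0.28 ± 0.096, SE, adjusted p = 0.321) reached an unadjusted p under 0.05, 2 of 10 genes against 13.4% of all genes. Within early passage 0 of 10 did, against 1.09%. After adjustment none of the 10 passed at either passage, and 0.00571% of all genes did at early and 0% at late passage. For the interaction of genotype and passage 0 of 10 reached an unadjusted p under 0.05, against 5.35% of all genes, and 0% of all genes passed after adjustment.

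**Figure D4:**
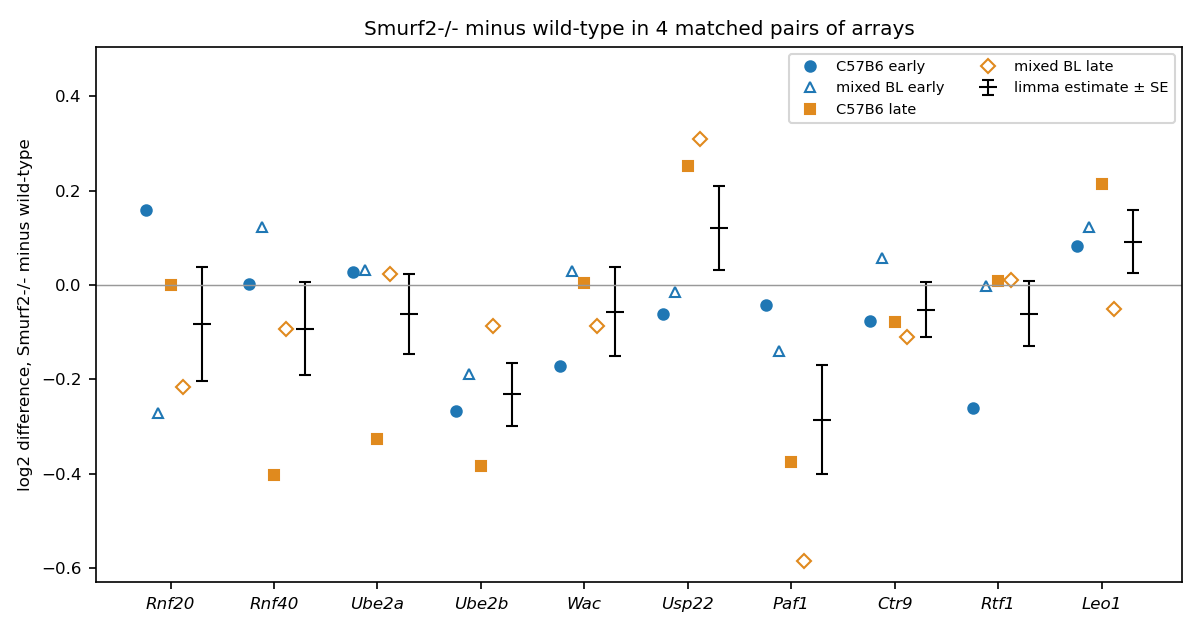
Smurf2-/- minus wild-type log2 differences (y axis) of the 10 genes (x axis) in each of the 4 matched pairs of arrays, with the limma estimate and its standard error. Ube2b and Paf1 lie below 0 in all 4 pairs, at estimates of -0.23 and -0.29, and Usp22 is above 0 in the late pairs (0.25 and 0.31) and just below 0 in the early ones.

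No gene of the 10 passed for background. An unadjusted p under 0.05 was found for 0 of 10, against 13.5% of all genes, and after adjustment 0 of 10, against 0.08%. The smallest p was that of Ube2b, 0.13 ± 0.066 (SE) higher in mixed BL (adjusted p = 0.464). Ctr9 was lower in mixed BL in all 4 pairs, at -0.10 ± 0.058 (adjusted p = 0.525; -0.066 without early wild-type mixed BL), as were 9.93% of all genes. Without the late Smurf2-/- C57B6 array the count was 1, Rnf40, and without the late wild-type C57B6 array 1, Ube2a.

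Lists of genes around H2B ubiquitination were set beside the 10 genes. The median log2 difference for passage was -0.11 over the 10 genes and 0.028 over all genes; for genotype the medians were -0.061 and 0.015. The 13 genes of H3K4 and H3K79 methylation had a passage median of 0.18, with Dpy30 and Wdr5, subunits shared by the H3K4 methyltransferase complexes, at 0.55 ± 0.11 (SE, adjusted p = 0.124) and 0.37 ± 0.080 (adjusted p = 0.135), each higher in 4 of 4 pairs. At an unadjusted p under 0.05, 4 of the 13 were higher and 0 lower, against 6.95% and 10.3% of all genes. The 18 Polycomb genes, whose products place other marks on histones H2A and H3, had a passage median of 0.099, and Cbx2 differed by 0.46 ± 0.058 (adjusted p = 0.0815). The 14 elongation factor genes had a passage median of -0.081; Tcea1 differed by 0.37 ± 0.12 (adjusted p = 0.222), and Ell2 of the super elongation complex by 0.78 ± 0.15 between genotypes at late passage (adjusted p = 0.156). None of the genes of these lists passed for genotype, passage or background.

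Genes of the substrate, histone H2B, were measured too. The 9 measured H2B histone genes had a passage median of 0.30 and a genotype median of 0.18. H2bc4 stood at -1.88 in late Smurf2-/- C57B6, at -1.74 in late Smurf2-/- mixed BL, and between -0.58 and 0.58 in the other arrays. Within Smurf2-/- cells its late minus early difference was -1.91 ± 0.18 (SE, adjusted p = 0.102). H2bc14 lay the other way, at 1.34 and 0.78 in the same 2 arrays, but also at 0.66 in late wild-type mixed BL, and between -0.21 and 0.0020 in the other 5. It differed by 0.83 ± 0.23 for passage (adjusted p = 0.180). Near-identical H2B genes share sequence that probes may not part, so their single values are uncertain.

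**Figure D5:**
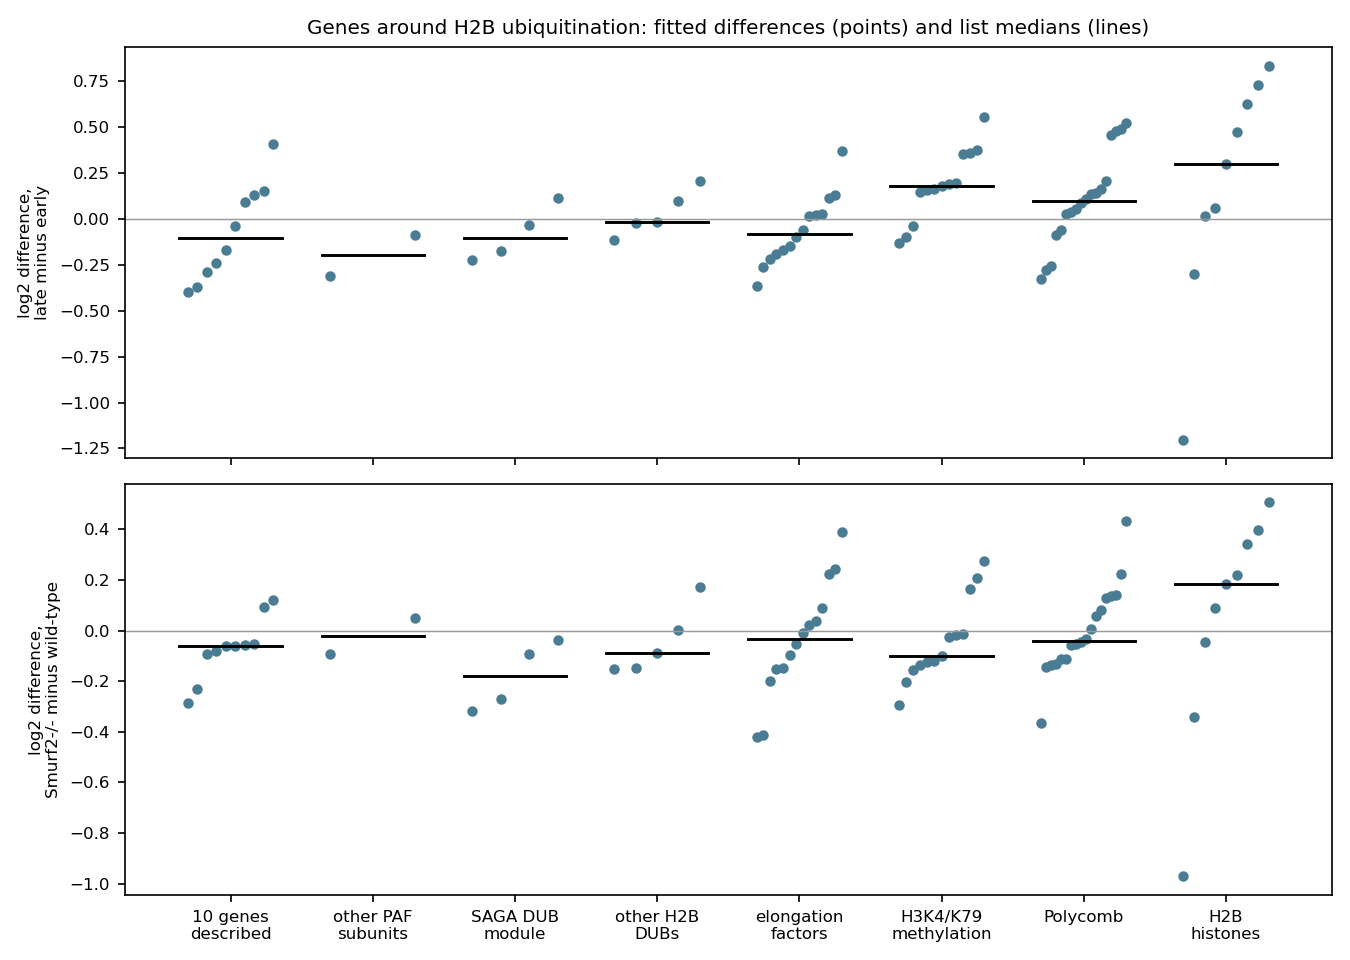
Fitted log2 differences (y axes) for passage (upper panel) and genotype (lower panel) of the genes in each list (x axis), 1 point per gene, with lines at the list medians. For passage the median is -0.11 over the 10 genes and 0.30 over the H2B histone genes, whose spread reaches from -1.20 (H2bc4) to 0.83 (H2bc14).

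The patterns of the 10 genes over the 8 arrays were compared with Pearson correlations, given as descriptions of arrays that share genotype and passage. Usp22 ran opposite to Paf1 (-0.95), Ube2a (-0.90) and Rnf20 (-0.86), and Rnf20 ran with Paf1 (0.83). Ube2a and Ube2b ran together (0.81), whereas Rnf20 and Rnf40, whose products form one ligase, did not (0.18), nor did Paf1 and Ctr9 (-0.35). Over all genes, the patterns most like that of Rnf20 were those of Cacul1 (0.97), Uhmk1 (0.97), Adamts5 (0.97), Wwtr1 (0.96) and Mmp12 (0.96). These were picked as the highest of all genes over 8 arrays. The highest was 0.98 for Leo1 (Psma5) and 0.94 for Rtf1 (Sp3), so such values are not particular to Rnf20.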

How the data were processed

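RNA of 8 MEF samples, 1 per combination of genotype, background and passage class, was hybridised to arrays. Per the deposited table the values are log2, and the authors had centred each cluster at 0 (the largest cluster median was 5e-07). How they normalized the arrays and summarised probes is not given in the sources used here. Names came from the annotation of a gene-level array, which the probe identifiers matched, although an exon array is named in the series text. Of 24169 clusters 19134 had 1 symbol, 1230 several and 3805 none; symbols were updated with RefSeq tables of GRCm38.p6.

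Clusters with 1 symbol were averaged per gene, giving 17501 genes. limma 3.58.1 in R 4.3.3 (lmFit, eBayes, no trend) fitted genotype, background and passage class with 4 residual degrees of freedom, or 3 with 1 interaction, and p-values were adjusted over all genes by the Benjamini-Hochberg method (threshold 0.05). The passage class is the number that ends each sample title, so the additive model holds that pairing of arrays. Exact permutation tests compared 4 arrays with 4. Array number limits the precision. For each list the 3 genes of smallest p per comparison were eligible for naming; the 10 genes were all described. Genes and lists were chosen with earlier results of these data known, and the H2B histone list after the table was read. Filters on dim clusters have no meaning for centred values and were not applied. Alternatives are given in the closing section.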

Additional observations from a re-analysis of the deposited data

Results flagged for a closer look

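Of 60 groups of 4 arrays, 6 had 1 array far from the other 3 by Dixon's criterion for the gap over the range. The criterion's chance rate of about 1 in 20 is for like, independent values, whereas each group here mixes levels of the other factors and the groups reuse the same 8 arrays. Rnf20 stood apart at 0.5704 in early wild-type mixed BL among wild-type arrays, and at -0.2531 in late Smurf2-/- mixed BL among late arrays. Rnf40 stood apart at -0.2121 in late Smurf2-/- C57B6 among C57B6 arrays. Wac stood apart at 0.1928 in late Smurf2-/- mixed BL among Smurf2-/- arrays, and at 0.1714 in early wild-type C57B6 among C57B6 arrays. Rtf1 stood apart at -0.2807 in early Smurf2-/- C57B6 among C57B6 arrays.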

How the results depend on the processing

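After adjustment 0 of the 10 genes passed for genotype, passage, background or the interaction of genotype and passage under every alternative run, with smallest adjusted p of 0.337, 0.0893, 0.161 and 0.339. The counts at an unadjusted p under 0.05 moved. For genotype the count of 2 was 1, Ube2b, after quantile normalization, with robust variance, and without the least variable genes, a filter that kept 8 of the 10 genes. With all interactions of factor pairs it was 1, Paf1. It was 0 without the replicate block (no pairing by passage class), 0 by exact permutation and 0 without both late Smurf2-/- arrays. Leaving out single arrays gave 1 to 2 for genotype, 3 to 6 for passage (5 with all arrays), 0 to 1 for background and 0 to 2 for the interaction (2, Paf1 and Usp22, without late Smurf2-/- C57B6). Without both late Smurf2-/- arrays, the passage count was 2 and the background count 1. Genotype differences that turned sign without both late Smurf2-/- arrays were those of Rnf40 (0.063), Ube2a (0.030) and Usp22 (-0.038). Each is by construction the difference within early passage. The interaction of genotype and passage for Ube2b became 0.066 after quantile normalization. Over single arrays left out, the genotype difference ranged from -0.19 to 0.017 for Rnf20, -0.16 to 0.0024 for Rnf40, -0.10 to 0.023 for Ube2a and -0.12 to 0.018 for Wac, and the passage difference of Leo1 from -0.085 to 0.011. Background differences ranged from -0.00058 to 0.13 for Wac, -0.11 to 0.025 for Usp22, -0.069 to 0.14 for Paf1 and -0.0055 to 0.095 for Rtf1. The interaction ranged from -0.33 to 0.23 for Rnf20, -0.11 to 0.093 for Ube2b, -0.16 to 0.22 for Wac and -0.15 to 0.11 for Leo1. The cause of these moves was not tested. Signal over background is unknown for centred values.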
